A study of Mus musculus with 4 samples.

Results

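The genes described here are 39 genes of double-strand break signalling and repair, out of 17691 genes with values in the deposited table, given as FPKM (fragments scaled by transcript length and library size). They were taken by gene symbol from a list of pathway genes, and all 39 were found. By role, 11 are genes of sensing and checkpoint signalling, 16 of homologous recombination, 8 of end joining and 4 of the Fanconi pathway. The study took lung RNA of C57BL/6 mice that were wild type and 6 to 8 weeks old. One group is 2 libraries from mice given bleomycin by the nose, and the other is 2 libraries from mice given PBS, a salt buffer, in the same way, both with a treatment time of 10 days. The labels speak of triplicates, while 2 libraries a group were analysed here, and they do not say whether each library is 1 animal or a pool. The p-values therefore measure the spread between these libraries, which may be technical.

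Cells that meet a DNA double-strand break first sense it, then halt the cell cycle and repair it. The MRE11, RAD50 and NBN proteins bind the broken end and activate the kinase ATM, while ATR answers single-stranded DNA, and both pass the signal to checkpoint kinases and to the histone variant H2AX. Repair then follows either end joining, which ligates the ends directly and works throughout the cell cycle, or homologous recombination, which copies a sister chromatid and is used in S and G2 phase. The Fanconi proteins handle crosslinked DNA and feed into recombination. Bleomycin breaks DNA strands and is used to provoke lung injury and fibrosis in mice.

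Low values of short transcripts put the depth at about 17200000 and 17800000 fragments for the bleomycin libraries and 17000000 and 17100000 for the PBS libraries. In all, 12986 genes averaged 1 FPKM or more over the 4 libraries and were tested with limma on log2(FPKM + 1), with Benjamini-Hochberg adjustment over all of them and a threshold of 0.05. The median log2 fold change of these genes was -0.02. Lung epithelial genes were abundant in every library. Scgb1a1, the most abundant of 11 epithelial markers, stood at 18857 and 19751 FPKM with bleomycin, against 54415 and 41165 FPKM with PBS. It did not pass (log2 fold change -1.29 ± 0.48, adjusted p = 0.131 by limma). Sftpc, a surfactant protein gene, stood at 10882 and 7913 FPKM with bleomycin, against 10221 and 12788 FPKM with PBS. Both bleomycin libraries were above both PBS libraries for 4 of the 11 and below for 4, beside 31.5% and 35% of all tested genes. The summed level of 8 macrophage markers was 769 and 520 FPKM with bleomycin, against 216 and 231 FPKM with PBS. The 5 B cell markers summed to 34.8 and 6.06 FPKM with bleomycin, against 34.3 and 34.2 FPKM with PBS, so the bleomycin libraries also differed from each other in these markers. Of the other marker lists, hepatocyte genes fell for 6 of 6, erythroid genes for 4 of 4 tested and neutrophil genes for 4 of 6, while fibroblast genes rose for 3 and fell for 2 of 6. The 6 hepatocyte markers summed to 6.55 and 3.73 FPKM with bleomycin, against 62.3 and 59.0 FPKM with PBS. Whether the tissue taken differed between the groups was not tested. Of 3 tested plasma and germinal centre B cell genes, Sdc1 rose, while Jchain and Mzb1 did not pass. Epithelial genes rose for 1 of 11, and endothelial genes fell for 1 of 6. For T cell genes 0 of 6 passed limma, and for tested B cell genes 0 of 4 (0 of each at an unadjusted p under 0.05). The Y-linked gene Eif2s3y was listed at 0 in both bleomycin libraries, against 26.4 and 28.9 FPKM with PBS. Treatment and the sex of the animals therefore cannot be told apart in any comparison given here. In whole lung, more cells of a type and more RNA per cell cannot be told apart.

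Of the 39 genes 26 were tested, and the 2 that passed rose. Of the 26 that averaged 1 FPKM or more, 2 rose (H2afx and Rad51ap1), 0 fell and 24 did not pass, while 8.59% of all tested genes rose and 7.69% fell. Rad51ap1 averaged 0.63 FPKM with PBS and 2.5 FPKM with bleomycin, so it entered the test only through the bleomycin libraries. With an unadjusted p under 0.05, the same limma fit gave 3 higher and 3 lower. The median log2 fold change of these 26 genes was -0.03. The remaining 13 genes had a mean under 1 FPKM, where log2(FPKM + 1) compresses a change, and were not tested in that fit. Among those 13, the bleomycin libraries were both above the PBS libraries for 11 genes and both below for 1. Over all 2491 genes with a mean of at least 0.1 and under 1 FPKM, 23.6% were higher without overlap and 30.5% lower. Among the 26 tested genes, 10 were higher without overlap and 7 lower, beside 31.5% and 35% over all tested genes.

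**Figure D1:**
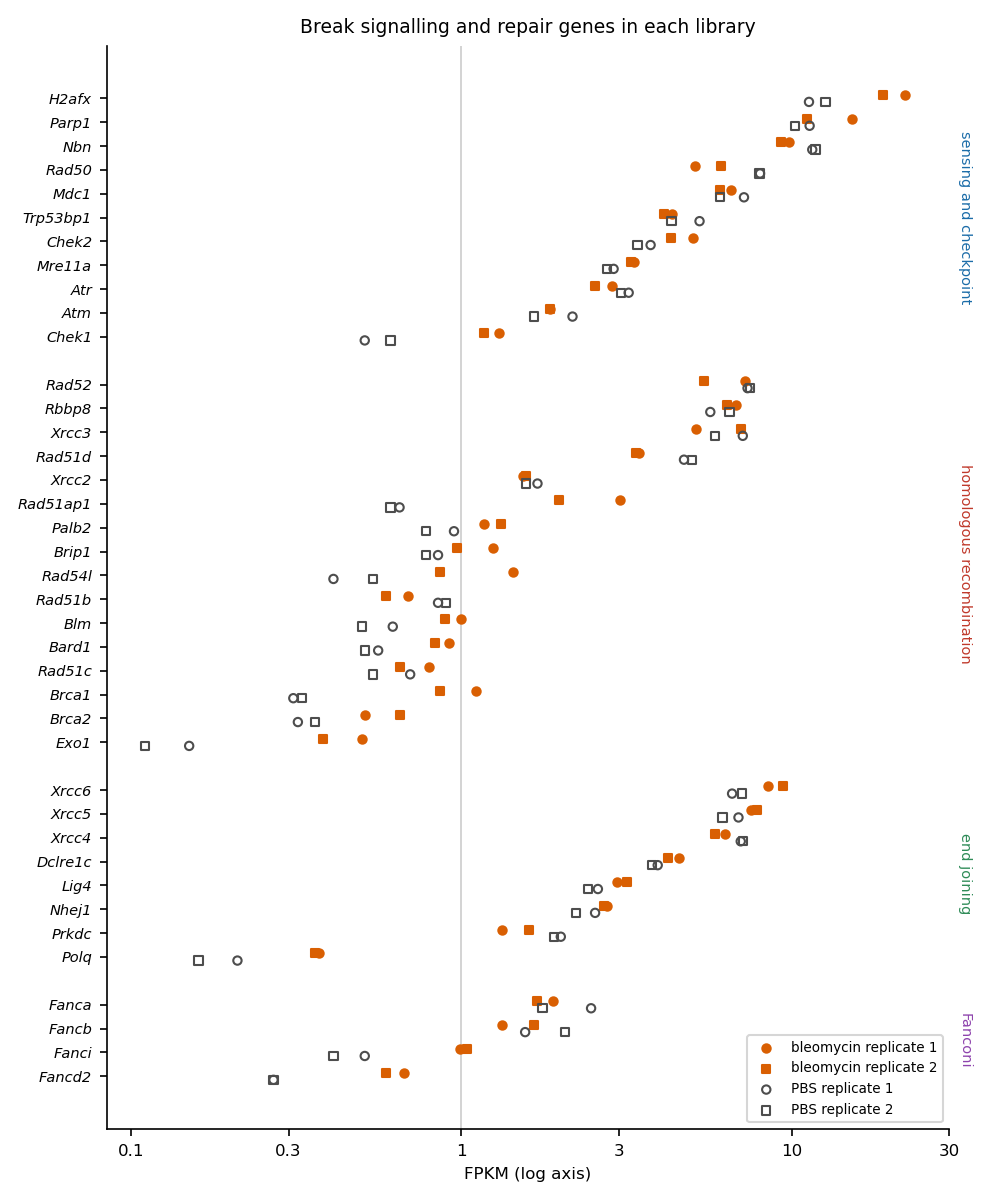
FPKM (log axis) of each of the 39 genes in each library, grouped by role and ordered by mean level, with bleomycin in filled orange and PBS in open grey symbols. Circles are replicate 1 and squares replicate 2, and the grey line marks 1 FPKM. Most genes to the left of the line (11 of 13) have both bleomycin symbols to the right of both PBS symbols, while the genes to its right move both ways.

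Among the sensing and checkpoint genes, the histone variant H2AX had the highest level and passed the test. H2afx (gene 15270, chromosome 9, 44334715 to 44336077, GRCm38.p6) encodes the histone that ATM, ATR and DNA-PK phosphorylate around a break. It was measured at 22.1 and 19.0 FPKM in the bleomycin libraries, against 11.3 and 12.7 FPKM in the PBS libraries. The groups did not overlap. Its log2 fold change was 0.73 ± 0.12 (SE, adjusted p = 0.0223 by limma). Chek1, the checkpoint kinase that ATR activates, lay under the filter. It was at 1.30 and 1.17 FPKM with bleomycin, against 0.51 and 0.61 FPKM with PBS, a ratio of means of 2.21. By the estimated depth these values rest on about 76 and 71 fragments with bleomycin and 29 and 35 with PBS. Chek2, the kinase that ATM activates, was at 5.03 and 4.31 FPKM with bleomycin, against 3.74 and 3.41 FPKM with PBS. The Chek2 libraries did not overlap between groups, and the difference did not pass (log2 fold change 0.31 ± 0.12, adjusted p = 0.154 by limma). Its log2 fold change lay between 0.216 and 0.399 leaving out a library.

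The 3 genes of the break-binding complex did not move together. Rad50, which tethers the ends, was at 5.11 and 6.13 FPKM with bleomycin, against 8.02 and 7.99 FPKM with PBS. Nbn, which recruits ATM, was at 9.84 and 9.28 FPKM with bleomycin, against 11.5 and 11.8 FPKM with PBS. Mre11a, the nuclease, was at 3.34 and 3.26 FPKM with bleomycin, against 2.89 and 2.76 FPKM with PBS. Rad50 and Nbn were thus lower in both bleomycin libraries and Mre11a higher in both, and none passed limma, with log2 fold changes of -0.45 ± 0.12 for Rad50 (adjusted p = 0.0652), -0.26 ± 0.09 for Nbn (adjusted p = 0.109) and 0.17 ± 0.11 for Mre11a (adjusted p = 0.335). Leaving out a library, the log2 fold change of Rad50 lay between -0.56 and -0.337 and that of Nbn between -0.302 and -0.225.

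The upstream kinases and the mediators showed small differences. Atm was at 1.86 and 1.85 FPKM with bleomycin, against 2.17 and 1.66 FPKM with PBS, and the groups overlapped. Atr was at 2.86 and 2.53 FPKM with bleomycin, against 3.21 and 3.04 FPKM with PBS. Atr was lower in both bleomycin libraries (log2 fold change -0.16 ± 0.12, adjusted p = 0.392 by limma). Mdc1, which docks on phosphorylated H2AX, was at 6.55 and 6.07 FPKM with bleomycin, against 7.17 and 6.06 FPKM with PBS. Trp53bp1, which shields ends from resection, was at 4.35 and 4.10 FPKM with bleomycin, against 5.26 and 4.33 FPKM with PBS. Parp1, an early sensor of strand breaks, was at 15.2 and 11.1 FPKM with bleomycin, against 11.3 and 10.2 FPKM with PBS. The groups overlapped for Mdc1, Trp53bp1 and Parp1, and for Parp1 the bleomycin pair was spread more widely than the PBS pair. The log2 fold change of Parp1 was 0.04 without bleomycin replicate 1, and it reached 0.46 when another library was left out.

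Homologous recombination held the 3 largest ratios of means and 9 of the 13 genes under 1 FPKM. Rad51ap1 (chromosome 6, 126923415 to 126939621, GRCm38.p6) encodes a DNA-binding partner of the strand-exchange recombinase. It was at 3.02 and 1.98 FPKM with bleomycin, against 0.65 and 0.61 FPKM with PBS. Both bleomycin libraries were far above both PBS libraries, with a ratio of means of 3.97. The log2 fold change was 1.09 ± 0.19 (adjusted p = 0.0277 by limma) with a pseudocount of 1, and 1.80 ± 0.27 with a pseudocount of 0.1, which compresses low values less. About 97 and 66 fragments stood behind the bleomycin values and 21 and 20 behind the PBS values. Without PBS replicate 1 or PBS replicate 2 limma called no gene in the whole table, H2afx and Rad51ap1 included (adjusted p = 0.231 and 0.2 for H2afx, 0.232 and 0.242 for Rad51ap1). With a library left out, the log2 fold change lay between 0.624 and 0.832 for H2afx and between 0.87 and 1.302 for Rad51ap1.

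Brca1 (chromosome 11, 101488761 to 101551955), which promotes resection and recombination, was at 1.11 and 0.86 FPKM with bleomycin, against 0.31 and 0.33 FPKM with PBS. This is a ratio of means of 3.08, resting on about 125 and 101 fragments with bleomycin and 35 and 37 with PBS. Bard1, its obligate partner, was at 0.92 and 0.83 FPKM with bleomycin, against 0.56 and 0.51 FPKM with PBS. Brca2, which loads the recombinase on DNA, was at 0.51 and 0.65 FPKM with bleomycin, against 0.32 and 0.36 FPKM with PBS. Palb2, which joins the BRCA1 and BRCA2 proteins, was at 1.17 and 1.32 FPKM with bleomycin, against 0.95 and 0.78 FPKM with PBS. Brip1, a helicase that binds BRCA1, was at 1.25 and 0.97 FPKM with bleomycin, against 0.85 and 0.78 FPKM with PBS. All 5 genes were higher in both bleomycin libraries than in either PBS library. Palb2 is the 1 gene of these 5 that entered the main fit, and it did not pass (log2 fold change 0.27 ± 0.15, adjusted p = 0.26 by limma).

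Genes of resection, branch migration and joint dissolution included further scarce transcripts. Exo1, a resection nuclease, was at 0.50 and 0.38 FPKM with bleomycin, against 0.15 and 0.11 FPKM with PBS, a ratio of means of 3.39. Rad54l, a motor protein that acts in strand invasion, was at 1.43 and 0.86 FPKM with bleomycin, against 0.41 and 0.54 FPKM with PBS, a ratio of 2.41. Blm, a helicase that unwinds recombination intermediates, was at 1 and 0.89 FPKM with bleomycin, against 0.62 and 0.50 FPKM with PBS. The groups did not overlap for Exo1, Rad54l or Blm. Rbbp8, which starts resection, was more abundant and overlapped between groups, at 6.76 and 6.36 FPKM with bleomycin, against 5.67 and 6.48 FPKM with PBS. Some 128 bases of Rad54l exon overlap exons of Lrrc41 on the other strand. Lrrc41 stood at 21.2 and 20.7 FPKM with bleomycin, against 17.3 and 17.99 FPKM with PBS. Whether the counting used strand is not given in the sources used here, so Rad54l values are uncertain. The same holds for the other genes of the 39 whose exons overlap a gene on the other strand, 9 with Rad54l. They are Mre11a, Trp53bp1, Xrcc4, Xrcc6, Dclre1c, Fanca, Fancd2 and Fanci. The overlapping genes differ in level. Fancd2os, beside Fancd2, was at 0 and 0.04 FPKM with bleomycin, against 0.04 FPKM in both PBS libraries. Suv39h2, beside Dclre1c, was at 0.63 and 0.67 FPKM with bleomycin, against 0.34 and 0.38 FPKM with PBS.

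The paralogs that assist the recombinase were lower or overlapped between groups. Rad51d was at 3.46 and 3.37 FPKM with bleomycin, against 4.72 and 4.99 FPKM with PBS. Rad51b was at 0.69 and 0.59 FPKM with bleomycin, against 0.85 and 0.90 FPKM with PBS. Both were lower without overlap, and Rad51d did not pass (log2 fold change -0.41 ± 0.11, adjusted p = 0.0643 by limma). Its log2 fold change lay between -0.44 and -0.374 leaving out a library. Rad51c was at 0.80 and 0.65 FPKM with bleomycin, against 0.70 and 0.54 FPKM with PBS. Xrcc2 was at 1.54 and 1.57 FPKM with bleomycin, against 1.70 and 1.57 FPKM with PBS, and Xrcc3 at 5.12 and 7 FPKM, against 7.11 and 5.87 FPKM with PBS. The groups overlapped for Rad51c, Xrcc2 and Xrcc3. Rad52, a single-strand annealing protein gene and the most abundant recombination gene here, was at 7.22 and 5.42 FPKM with bleomycin, against 7.35 and 7.49 FPKM with PBS. Rad52 was lower in both bleomycin libraries by unequal amounts (log2 fold change -0.21 ± 0.15, adjusted p = 0.358 by limma). With a library left out, its log2 fold change lay between -0.391 and -0.035. Of the 16 recombination genes, 9 were higher without overlap, 3 were lower and 4 overlapped. Without overlap, 31.5% of all tested genes were higher and 35% lower, and 23.6% and 30.5% of genes under 1 FPKM, where 9 of the 16 lie.

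None of the tested end joining genes passed. The 2 subunits of the Ku ring, which threads onto broken ends, were both higher with bleomycin. Xrcc6, which encodes Ku70, was at 8.49 and 9.44 FPKM with bleomycin, against 6.6 and 7.07 FPKM with PBS. Xrcc5, which encodes Ku80, was at 7.51 and 7.86 FPKM with bleomycin, against 6.90 and 6.18 FPKM with PBS. Prkdc, the catalytic subunit of DNA-PK that Ku recruits, was lower, at 1.33 and 1.60 FPKM with bleomycin, against 2 and 1.91 FPKM with PBS. None of the 3 passed limma, with log2 fold changes of 0.35 ± 0.10 for Xrcc6 (adjusted p = 0.0882), 0.21 ± 0.10 for Xrcc5 (adjusted p = 0.226) and -0.26 ± 0.14 for Prkdc (adjusted p = 0.236). The log2 fold change of Xrcc6 lay between 0.277 and 0.415 leaving out a library. Xrcc6 shares 282 exon bases with Desi1 on the other strand. Desi1 was also higher, at 20.2 and 25.26 FPKM with bleomycin, against 15.75 and 16.9 FPKM with PBS. The part of Desi1 in the Xrcc6 values was not tested.

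The ligation genes were split in direction. Lig4, the ligase, was at 2.95 and 3.17 FPKM with bleomycin, against 2.59 and 2.42 FPKM with PBS. Its partner Xrcc4 was at 6.30 and 5.85 FPKM with bleomycin, against 7.01 and 7.13 FPKM with PBS. Lig4 was thus higher and Xrcc4 lower in both bleomycin libraries, neither past the test (adjusted p = 0.264 and 0.233 by limma). Nhej1, which encodes the scaffold XLF, was at 2.76 and 2.70 FPKM with bleomycin, against 2.54 and 2.22 FPKM with PBS. Dclre1c, which encodes the end-opening nuclease Artemis, was at 4.57 and 4.23 FPKM with bleomycin, against 3.93 and 3.77 FPKM with PBS. Both were slightly higher without overlap, and neither passed (adjusted p = 0.45 and 0.36 by limma). Polq, the polymerase of the alternative microhomology pathway, was the scarcest of the 39 genes, at 0.37 and 0.36 FPKM with bleomycin, against 0.21 and 0.16 FPKM with PBS. It also had the largest ratio of means among the end joining genes, 1.97. All 8 end joining genes separated the groups, 6 higher and 2 lower, where 31.5% of all tested genes were higher and 35% lower without overlap, and 0 of the 7 tested passed limma (with an unadjusted p under 0.05, 1 and 0).

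The 4 Fanconi genes fell into pairs. Fancd2 and Fanci encode the partners of the clamp that is ubiquitinated at a crosslink. Fancd2 (chromosome 6, 113531640 to 113597020) was at 0.67 and 0.59 FPKM with bleomycin, against 0.27 FPKM in both PBS libraries, a ratio of means of 2.33. Fanci (chromosome 7, 79392312 to 79450266) was at 0.99 and 1.04 FPKM with bleomycin, against 0.51 and 0.41 FPKM with PBS, a ratio of 2.21. About 64 and 58 fragments with bleomycin and 25 in each PBS library stood behind Fancd2, and about 79 and 86 against 40 and 33 behind Fanci. Fanca and Fancb encode subunits of the complex that ubiquitinates that clamp. Fanca was at 1.90 and 1.69 FPKM with bleomycin, against 2.47 and 1.76 FPKM with PBS, and Fancb at 1.33 and 1.66 FPKM, against 1.56 and 2.06 FPKM with PBS. The clamp genes were higher without overlap, while the groups overlapped for Fanca and Fancb, which did not pass (adjusted p = 0.562 and 0.501 by limma). Fancb is X-linked, and the difference in Y-linked RNA between the groups applies to it as to every gene. Fanci shares 665 exon bases with Polg on the other strand, and Polg was at 15.2 and 15.7 FPKM with bleomycin, against 17.2 and 18.9 FPKM with PBS.

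**Figure D2:**
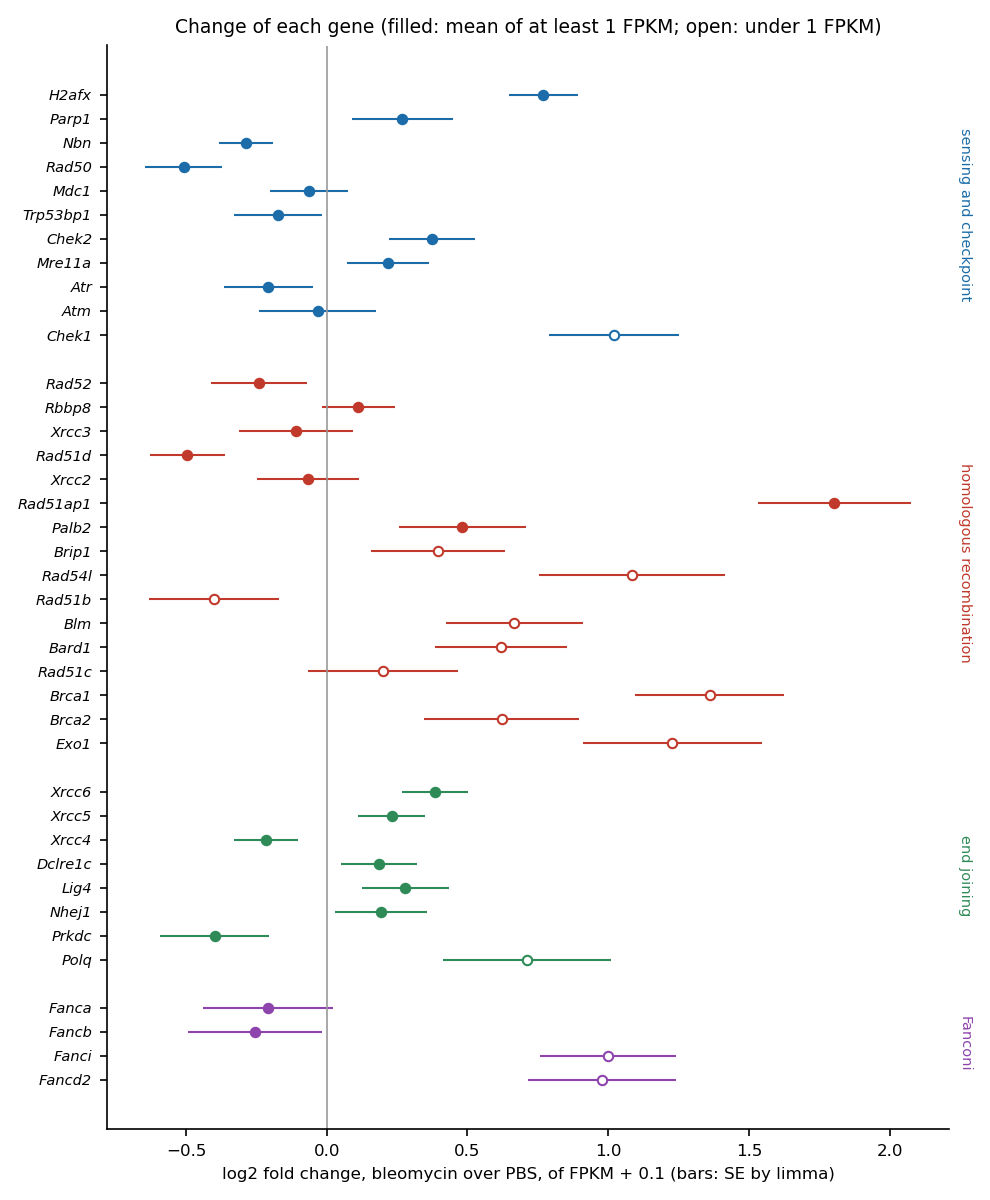
Log2 fold change of FPKM + 0.1, bleomycin over PBS, for the 39 genes in the order of the level plot, with bars for the SE by limma. Filled points are genes that average 1 FPKM or more and open points those under it. Rad51ap1 lies farthest right at 1.80, and Brca1, Exo1, Rad54l, Chek1, Fanci and Fancd2 lie between 0.98 and 1.36, while Rad50 lies farthest left at -0.51.

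Whether the scarce genes passed depended on how low values were handled. With no filter on level, limma tested all 39 genes and called 6 higher and 0 lower (with an unadjusted p under 0.05, 14 and 4), beside 4.58% and 4.18% of 17691 genes. The 6 were H2afx (adjusted p = 0.0451), Rad51ap1 (0.0476), Fancd2 (0.0401), Brca1 (0.0402), Fanci (0.0407) and Chek1 (0.0418). With a filter at 0.1 FPKM and a pseudocount of 0.1, limma called 3 higher and 0 lower, beside 7.26% and 6.24% of 15477 genes. Those 3 were Rad51ap1 (adjusted p = 0.0241), H2afx (0.0261) and Brca1 (0.0393), and Chek1, Fanci, Exo1 and Fancd2 then had adjusted p-values of 0.0551, 0.063, 0.0719 and 0.0772. Over the 3 fits that took in the scarce genes, the adjusted p of Brca1 ranged between 0.0363 and 0.0402, that of Chek1 between 0.0418 and 0.0551, that of Fanci between 0.0407 and 0.063 and that of Fancd2 between 0.0401 and 0.0772.

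**Figure D3:**
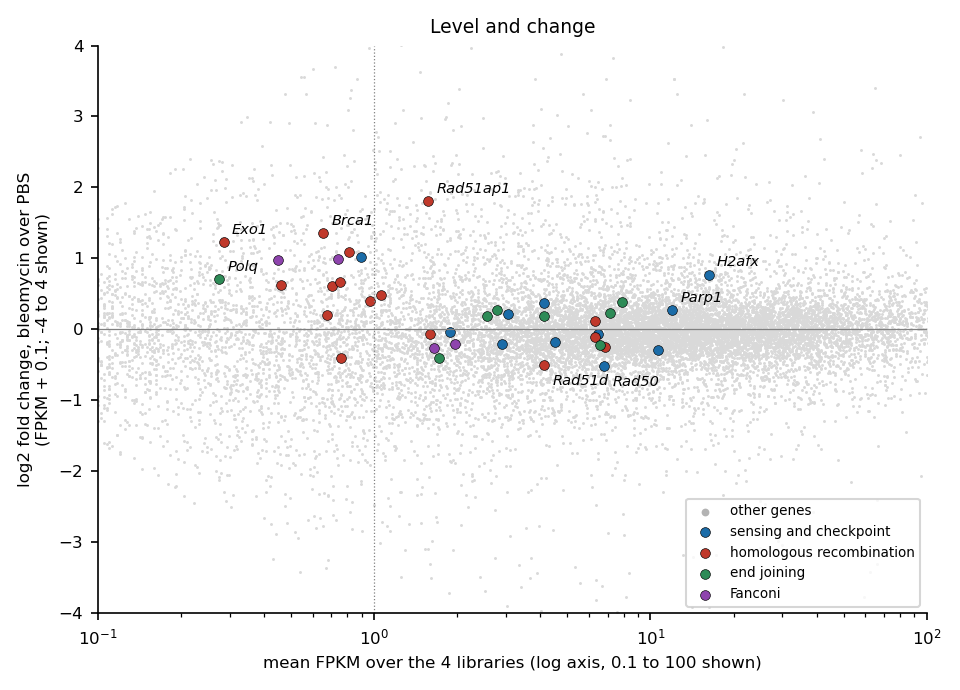
Mean FPKM over the 4 libraries (log axis) against the log2 fold change of FPKM + 0.1, bleomycin over PBS, for the 39 genes coloured by role and for other genes in grey. The dotted line marks 1 FPKM. To its left 12 of the 13 repair genes lie above 0, Rad51b being the exception, while to its right Rad51ap1 is the one repair gene above 1.

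Most replication and mitosis genes rose in the same libraries. Of 32 markers 21 rose, 0 fell and 11 did not pass, with a median log2 fold change of 1.17. Over all tested genes, 8.59% rose and 7.69% fell. Ccne1, Bub1 and Cenpf, all called higher, averaged under 1 FPKM with PBS and entered the test only through the bleomycin libraries. Ccna2, the cyclin of S and G2 phase, was at 13.4 and 11.5 FPKM with bleomycin, against 1.97 and 2.57 FPKM with PBS. Prc1, a cytokinesis gene, was at 13.6 and 11.9 FPKM with bleomycin, against 2.77 and 2.25 FPKM with PBS. Ccnb1 and Cdk1, which drive entry into mitosis, had log2 fold changes of 1.93 ± 0.12 and 1.86 ± 0.14 (adjusted p = 0.00558 and 0.00621 by limma). The summed level of the 32 markers was 360 and 304 FPKM with bleomycin, against 171 and 175 FPKM with PBS, and all 32 were above 0 in all 4 libraries. Bleomycin replicate 1 was above replicate 2 for 30 of the 32 markers. It was the higher one for 15 of the 21 repair genes that were higher in both bleomycin libraries, among them H2afx, Rad51ap1, Brca1, Rad54l and Exo1. For Brca2, Palb2, Xrcc5, Xrcc6, Lig4 and Fanci replicate 2 was the higher one. Of the PBS libraries, replicate 1 was the higher one for 18 of the 32 markers. The share of all genes with replicate 1 above replicate 2 was not computed, so these counts have no background here. The median log2 fold change of all tested genes was 0.012 without bleomycin replicate 2 and -0.054 without bleomycin replicate 1. The part of cycling cells in the repair gene values was not tested.

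Promoter sequence was compared because replication genes rose in the same libraries. The E2F transcription factors control genes of S phase and bind a core that reads TTCCCGC here, in which each of the first 2 C letters may also be G. RefSeq promoter windows (GRCm38.p6, 250 bases before to 50 after the start) were on hand for 30 of the 39 genes, and the core was searched on both strands. It was present for 18 of the 30 (60%), against 18.7% of 10010 tested genes with a window and 36% of 25 replication and mitosis markers. By direction, it was present for 12 of 18 genes that were higher without overlap, 2 of 4 that were lower and 4 of 8 that overlapped. It was present for 9 of 11 genes under 1 FPKM and 9 of 19 above. A CHR element (TTTGAA, either strand), a letter pattern of late cell cycle promoters, was present for 3 of 30 (10%), against 14.2% of tested genes and 44% of the replication and mitosis markers. A CCAAT box (either strand) was present for 17 of 30 (56.7%), against 42.3% of tested genes and 76% of the markers. A CCAAT box on the other strand (ATTGG) can share letters with a core that has G at both of those places. These are matches of letters and do not show binding.

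The 6 genes that were higher without overlap and hold the core between 70 bases before and 30 bases after the start are shown, 5′ to 3′ on the gene's own strand, with the core in capitals. They are Rad51ap1 (chr6:126939558-126939657, minus strand), Brca1 (chr11:101551926-101552025, minus strand), Brip1 (chr11:86201164-86201263, minus strand), Fanci (chr7:79392268-79392367, plus strand), Polq (chr16:37011716-37011815, plus strand) and Xrcc6 (chr15:82016299-82016398, plus strand), all from RefSeq, GRCm38.p6.
Rad51ap1: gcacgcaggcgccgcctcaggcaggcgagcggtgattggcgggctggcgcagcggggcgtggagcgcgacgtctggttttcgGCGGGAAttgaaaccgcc
Brca1: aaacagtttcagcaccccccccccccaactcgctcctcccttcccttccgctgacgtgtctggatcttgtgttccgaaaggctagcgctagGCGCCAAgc
Brip1: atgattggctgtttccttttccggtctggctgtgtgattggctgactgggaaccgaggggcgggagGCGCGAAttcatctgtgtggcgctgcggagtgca
Fanci: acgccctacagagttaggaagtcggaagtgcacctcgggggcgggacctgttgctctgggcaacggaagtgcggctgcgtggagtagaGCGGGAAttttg
Polq: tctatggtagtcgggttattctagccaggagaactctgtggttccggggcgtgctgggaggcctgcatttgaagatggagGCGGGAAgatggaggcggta
Xrcc6: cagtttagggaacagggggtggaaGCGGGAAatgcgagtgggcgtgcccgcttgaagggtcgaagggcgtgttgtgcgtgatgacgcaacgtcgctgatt
In Rad51ap1, Fanci and Polq the core begins 13, 19 and 11 bases into the transcript and reads GCGGGAA, and in Brca1 it begins at base 22. In Xrcc6 it lies 46 bases before the start, which is a RefSeq start inside the annotated gene, and in Brip1 it begins 4 bases before the start. The 6 genes span ratios of means between 1.31 (Xrcc6) and 3.97 (Rad51ap1). Atm, Mdc1 and Rad51c, whose groups overlapped, also hold the core between 70 bases before and 30 bases after a start and are not shown.

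Other genes of break repair, listed from pathway knowledge, were set beside the same share of all tested genes, 8.59% higher and 7.69% lower. Of 23 tested genes of signalling and checkpoint, 2 rose and 0 fell, and the list's median log2 fold change was -0.10. Clspn, the adaptor that lets ATR activate CHK1, was at 1.84 and 1.60 FPKM with bleomycin, against 0.39 and 0.36 FPKM with PBS (log2 fold change 0.98 ± 0.15, adjusted p = 0.0197 by limma). Trp53, the gene of p53, was at 42.8 and 39.4 FPKM with bleomycin, against 28.6 and 28.3 FPKM with PBS (0.52 ± 0.08, adjusted p = 0.0233). Of 21 tested recombination and resection genes, 1 rose and 0 fell, with a median of 0.03. It was Fignl1, which acts with the recombinase, at 2.03 and 1.94 FPKM with bleomycin, against 0.87 and 0.76 FPKM with PBS (0.72 ± 0.14, adjusted p = 0.032 by limma). Swi5 and Sfr1, partners in a complex that assists strand exchange, were the most abundant of that list. Swi5 was at 121 and 121 FPKM with bleomycin, against 114 and 123 FPKM with PBS, and Sfr1 at 61.3 and 64.4 FPKM, against 63.7 and 59.2 FPKM with PBS. Clspn and Fignl1 each averaged under 1 FPKM with PBS and entered the test only through the bleomycin libraries.

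Of 15 tested end joining and end processing genes, 2 rose and 0 fell, with a median of -0.04. Lig1, the replicative ligase, was at 9.48 and 8.24 FPKM with bleomycin, against 5.35 and 5.46 FPKM with PBS. Parp3, a break-responsive ADP-ribosyltransferase, was at 32.9 and 38.8 FPKM with bleomycin, against 25.3 and 24.4 FPKM with PBS. Their log2 fold changes were 0.62 ± 0.11 and 0.51 ± 0.11 (adjusted p = 0.0274 and 0.0411 by limma). With no filter on level, which leaves these fold changes as they are and adjusts over 17691 genes, limma called 0 of the list's genes. Of 13 tested Fanconi and crosslink genes, 1 rose and 1 fell, with a median of -0.06. Ube2t, the ubiquitin-conjugating enzyme of the pathway, was at 3.32 and 2.60 FPKM with bleomycin, against 1.12 and 1.5 FPKM with PBS (log2 fold change 0.78 ± 0.17, adjusted p = 0.0427), and with no filter on level it was not called. Fancc, a core complex subunit, was at 6.61 and 5.27 FPKM with bleomycin, against 11.5 and 11.8 FPKM with PBS (-0.87 ± 0.13, adjusted p = 0.0191 by limma).

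Targets of p53, the factor that break signalling stabilizes, rose more often than they fell. Of 22 targets 12 rose, 3 fell and 7 did not pass, with a median log2 fold change of 0.53. Over all tested genes, 8.59% rose and 7.69% fell. With no filter on level, limma called 9 targets higher and 2 lower, beside 4.58% and 4.18% of 17691 genes. Cdkn1a, which halts the cycle, was at 235 and 273 FPKM with bleomycin, against 49.0 and 50.2 FPKM with PBS. Gdf15, a stress cytokine gene, was at 9.55 and 6.94 FPKM with bleomycin, against 0.69 and 1.20 FPKM with PBS. Ccng1 and Eda2r had log2 fold changes of 1.37 ± 0.09 and 1.26 ± 0.18 (adjusted p = 0.00592 and 0.0175 by limma). Gdf15 and Eda2r each averaged under 1 FPKM with PBS and entered the test only through the bleomycin libraries. The 3 that fell were Rrm2b, Ddb2 and Xpc, which serve nucleotide supply and excision repair, with log2 fold changes of -0.71 ± 0.10, -0.68 ± 0.13 and -0.63 ± 0.10 (adjusted p = 0.0171, 0.034 and 0.0228 by limma). These 3, a count of 5 or fewer, were named after their values were seen.

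**Figure D4:**
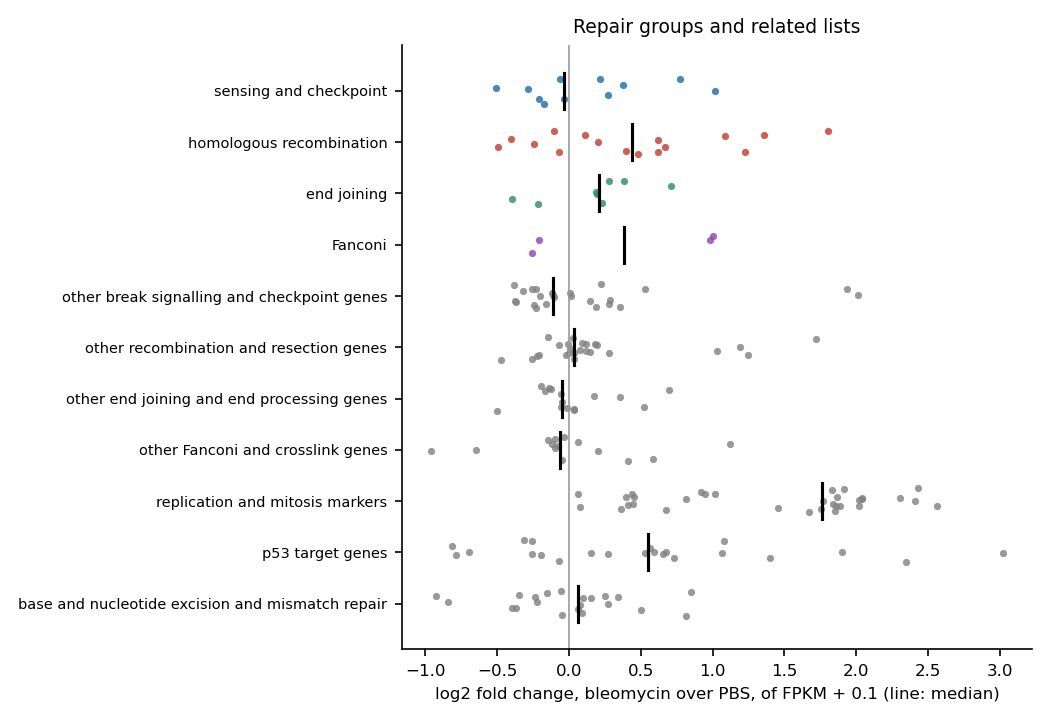
Log2 fold change of FPKM + 0.1, bleomycin over PBS, for each gene of the 4 repair groups (coloured) and of 7 related lists (grey), with a black line at each median. The medians are -0.03 for sensing and checkpoint, 0.44 for recombination, 0.21 for end joining and 0.38 for Fanconi genes. The other genes of these roles have medians of -0.11, 0.03, -0.05 and -0.06. Excision and mismatch repair has 0.06, p53 targets 0.55, replication and mitosis markers 1.76, and all genes of that fit -0.03. Genes under 1 FPKM are included. With a pseudocount of 1 and only genes averaging 1 FPKM or more, the 4 repair groups have medians of -0.04, -0.04, 0.15 and -0.16.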

How the data were processed

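RNA of mouse lung was measured in 4 libraries, 2 given bleomycin and 2 given PBS. Per the file headers, the authors' table holds FPKM rounded to 2 decimals for every gene and library. The submitters' processing notes name Bowtie2, HISAT, mm10 and GRCm38, without their roles. Not given in the sources used here are the quantification tool and its strand setting. The FPKM unit scales to each library's total, so an abundant transcript lowers the others. The nameless row among 17692 (at most 0.0009% of any library) was dropped, and 27 gene names that had become dates were restored by RefSeq accession. limma 3.58.1 (R 4.3.3) fitted log2(FPKM + 1) with a trended prior, two-sided, on 2.76 prior and 2 residual degrees of freedom. Depth is the number of fragments that best makes low values of transcripts of 300 to 1000 bases whole, and 75% to 78.1% of them lay within 0.15 of a whole fragment. It was chosen for these same values and is approximate, and fragment numbers per gene use GENCODE transcript lengths. Intervals of sampling were not computed. Data for bleomycin against PBS with 12986 genes were simulated on log2(FPKM + 1), with normal noise at the spread of the fit itself. The test called 91% of 100 genes simulated with a 2-fold change of FPKM + 1 and 98% of 100 with a 4-fold change. Of its 203 calls, 14 were false. At low levels such a step is a larger change of FPKM itself, so these shares do not hold for the same change of FPKM. Tables were made in Python 3.11.15 with pandas 2.3.3. All 39 genes, the related lists and the markers were chosen with earlier results of these data known. Every one of the 39 is described, and of each related list up to 4 called genes with the largest change are named, or the most abundant where fewer than 2 passed.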

Additional observations from a re-analysis of the deposited data

How the results depend on the processing

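Over the 26 tested repair genes, 21 kept their direction in every alternative run: pseudocounts of 0.1 and 0.5, other filters, quantile, TPM and upper quartile scaling, eBayes without a trend or robust, the replicate block and each library left out. No scaling moved the median of all genes by 0.1. The others, all uncalled, changed sign: Atm to 0.0073 with quantile normalization and 0.026 with TPM (between -0.15 and 0.10 leaving out a library), Mdc1 to 0.0038 with TPM (between -0.161 and 0.0494), Xrcc2 to 0.002 with quantile normalization, Xrcc3 between -0.29 and 0.10 and Fanca between -0.313 and 0.0172 leaving out a library. The 2 repair genes called higher became 6 with no filter, 5 with a filter at 0.1 FPKM (added after seeing the data), 3 with that filter and a pseudocount of 0.1 (also added), and 1 with a filter at 5 FPKM, which leaves out Rad51ap1. Leaving out each library gave 0 to 4 repair genes higher and 0 to 4 lower, 0 to 2402 of all genes higher and 0 to 3144 lower, against 1116 and 998, and 0 to 53 genes of the related lists higher and 0 to 20 lower, against 40 and 5. Without PBS replicate 1 or 2 limma called 0 genes, with 1120 and 1143 higher and 1007 and 1059 lower at an unadjusted p under 0.05. That fit takes its spread from the bleomycin pair (median SD 0.12, against 0.06 between the PBS libraries, on the log2 scale). A fit without a bleomycin library takes it from the tighter PBS pair. In each, a lone library is assumed to vary like the other group. The related lists had 23 genes higher with a filter at 5 FPKM. The replicate numbers are not stated to pair libraries (correlation of same-numbered deviations across genes 0.02), and with the replicate block 2 repair genes were called higher and 0 lower, and 842 and 799 of all genes. The 7 genes under 1 FPKM with a known transcript length rest on an estimated 15 to 149 fragments a library. Detection of changes under 2-fold of FPKM + 1 was not simulated.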

Other observations

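Genes of base excision, nucleotide excision and mismatch repair, which mend damage other than double-strand breaks, were near level as a list. All 21 were tested, and 1 rose and 1 fell, with a median log2 fold change of 0.05. Fen1, the flap nuclease of replication and long-patch repair, was at 10.9 and 8.72 FPKM with bleomycin, against 5.53 and 5.21 FPKM with PBS (log2 fold change 0.76 ± 0.13, adjusted p = 0.0278 by limma). Nthl1, a glycosylase for oxidized pyrimidines, was at 3.44 and 3.10 FPKM with bleomycin, against 6.12 and 5.77 FPKM with PBS (-0.70 ± 0.11, adjusted p = 0.0218 by limma). With no filter on level, limma called 0 of the list higher and 1 lower, and without PBS replicate 1 or 2 it called 0 genes of the whole table.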
